A study of Homo sapiens with 16 samples.

Results

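The 8 neuroendocrine genes SYP, INSM1, CHGA, CHGB, NCAM1, UCHL1, NEUROD1 and DLL3, together with REST, the repressor of many neuronal genes, were described in 4 cell lines treated with AU-15330. They were taken by gene symbol, and all 9 were found among the 35606 genes of the expression table. RNA-seq was available for 16 libraries, 2 per line and arm. The arms were 1 µM AU-15330, a degrader of the SWI/SNF proteins SMARCA2, SMARCA4 and PBRM1, and the solvent DMSO. Small cell lung cancer of the POU2F3-driven, tuft cell-like type (SCLC-P) was represented by NCI-H526 and NCI-H1048, and multiple myeloma by NCI-H929 and MM1.S. The lines carry no engineered allele, and each type of cancer is represented by these established lines alone. The sample titles give 24 h of treatment and the treatment protocol gives 12 to 24 h, so the exact duration is uncertain. By the extraction protocol in the sample records, MM1.S RNA was depleted of ribosomal RNA and the other 3 lines were poly(A) selected, although the study's methods name poly(A) selection without this distinction, and a level in MM1.S set beside a level in another line therefore also reflects the preparation. A figure legend of the study calls RNA-seq libraries of the SCLC-P lines biological replicates, but it names 12 h of treatment and may describe other libraries. The labels do not say whether the 2 libraries of an arm came from separate cultures, so that p-values measure only the spread between these libraries.

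Neuroendocrine cells release hormones and peptides from dense-core vesicles, and most small cell lung cancers keep this program under lineage transcription factors such as NEUROD1, while POU2F3-driven tumors largely lack it. REST binds a DNA element called RE1 near neuronal and secretory genes and recruits corepressors, including the RCOR, SIN3, HDAC and KDM1A proteins, which keep those genes silent outside neurons. INSM1 and NEUROD1 are transcription factors of the program, CHGA and CHGB are granins that fill the vesicles, SYP is a vesicle membrane protein, NCAM1 an adhesion molecule, UCHL1 a deubiquitinating enzyme and DLL3 an inhibitory Notch ligand that serves as a drug target in small cell lung cancer.

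All values are the deposited ones, scaled by the authors for the size of each library and not divided by gene length, so that a gene can be compared between libraries but not with another gene. The value of a single read, read from the commonest low value, gave an estimated depth of between 31.5 and 43.0 M reads for the libraries of NCI-H526, between 33.3 and 39.2 M for NCI-H1048, between 12.0 and 14.0 M for NCI-H929 and between 16.8 and 32.4 M for MM1.S (M, units of 1e6). The lines matched their labels: POU2F3 was at a mean of 1284 in NCI-H526 and 567 in NCI-H1048 under DMSO and at 0.0446 and 0.671 in NCI-H929 and MM1.S, and the plasma cell marker SDC1 was at 591 in NCI-H929 and 760.1 in MM1.S. YAP1, a marker of the non-neuroendocrine type, was at a mean of 2.27 under DMSO in NCI-H526 and 80.9 in NCI-H1048. In bulk RNA, fewer cells of a type and less RNA per cell cannot be told apart.

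The upstream sequences of 3 of the 9 genes are printed because their levels separate the lines: under DMSO, SYP and CHGA were high in NCI-H526 alone, and REST was lowest there. RefSeq promoters (assembly GRCh38.p14, from 250 bases before to 50 bases after a start site) were given for 5 of the 9 genes, namely SYP, CHGA, REST, UCHL1 and NEUROD1, and not for INSM1, CHGB, NCAM1 and DLL3. Each sequence runs 5′ to 3′ on the strand of the gene. It covers the bases before annotated exons, and capitals mark a motif match.
SYP, chrX:49200219-49200443, minus strand: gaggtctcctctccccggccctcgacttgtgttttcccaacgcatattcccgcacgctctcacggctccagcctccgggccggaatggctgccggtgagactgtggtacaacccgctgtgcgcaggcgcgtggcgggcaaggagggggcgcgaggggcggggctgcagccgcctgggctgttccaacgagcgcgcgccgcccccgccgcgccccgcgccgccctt
CHGA, chr14:92922900-92923149, plus strand: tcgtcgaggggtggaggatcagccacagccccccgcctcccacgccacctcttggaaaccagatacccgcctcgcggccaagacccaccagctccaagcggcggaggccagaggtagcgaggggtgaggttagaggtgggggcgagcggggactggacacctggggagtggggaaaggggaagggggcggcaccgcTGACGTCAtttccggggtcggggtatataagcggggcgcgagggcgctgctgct
REST, second of its start sites, chr4:56908660-56908909, plus strand: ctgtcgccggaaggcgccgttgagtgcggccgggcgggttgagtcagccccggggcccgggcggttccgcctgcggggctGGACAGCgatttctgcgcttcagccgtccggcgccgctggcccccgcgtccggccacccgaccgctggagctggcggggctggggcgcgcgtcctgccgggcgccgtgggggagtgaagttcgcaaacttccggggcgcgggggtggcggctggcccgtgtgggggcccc

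Motifs were searched on both strands in the 300-base windows. They were the cAMP response element TGACGTCA, the octamer ATGCAAAT that POU2F proteins bind, the left and right parts of the RE1 element (CAGCACC and GGACAGC) and the E-box CAGCTG. CHGA held TGACGTCA at position -54 from its start site, a motif that 1.85% of 35116 RefSeq promoters hold. REST held GGACAGC at position -170 from the start site shown, a motif in 6.03% of the promoters. The octamer, CAGCACC and CAGCTG, held by 1.77%, 7.75% and 17.9% of all promoters, had no match in the windows of these 5 genes, and SYP had no match to any of the 5 motifs. These letters are a description of the windows and were not tied to any measured binding.

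In NCI-H526, AU-15330 lowered most of the neuroendocrine genes by less than 1 log2 unit, and CHGB was the one that rose. In NCI-H1048 and in the 2 myeloma lines, SYP rose from a low level, by up to 7.46-fold, whereas it fell in NCI-H526. REST did not pass the test in either SCLC-P line and rose in both myeloma lines. The plot of all values by library and the plot of fold changes by line show these patterns.

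**Figure D1:**
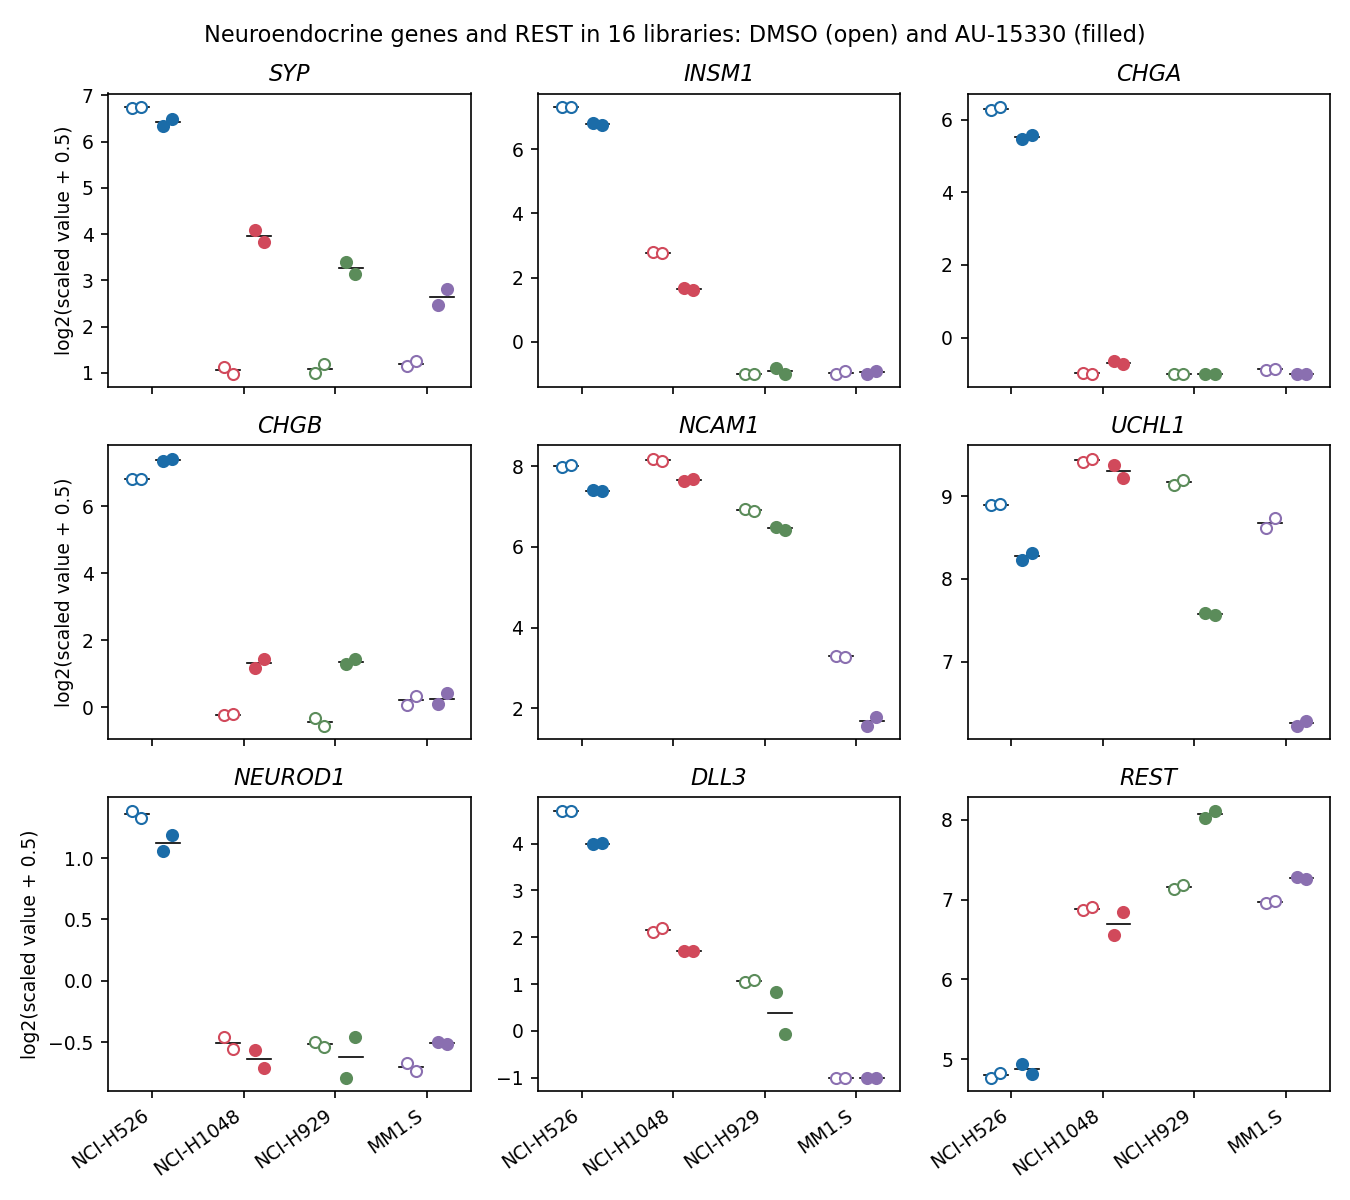
Each panel plots log2(scaled value + 0.5) of 1 gene on the vertical axis for the 4 cell lines, with open points for DMSO libraries, filled points for AU-15330 libraries and bars for the means of 2 libraries. SYP is high in NCI-H526 in both arms and rises with treatment in the other 3 lines, while REST is lowest in NCI-H526 (27.3 under DMSO, against 118 to 142 in the others).

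**Figure D2:**
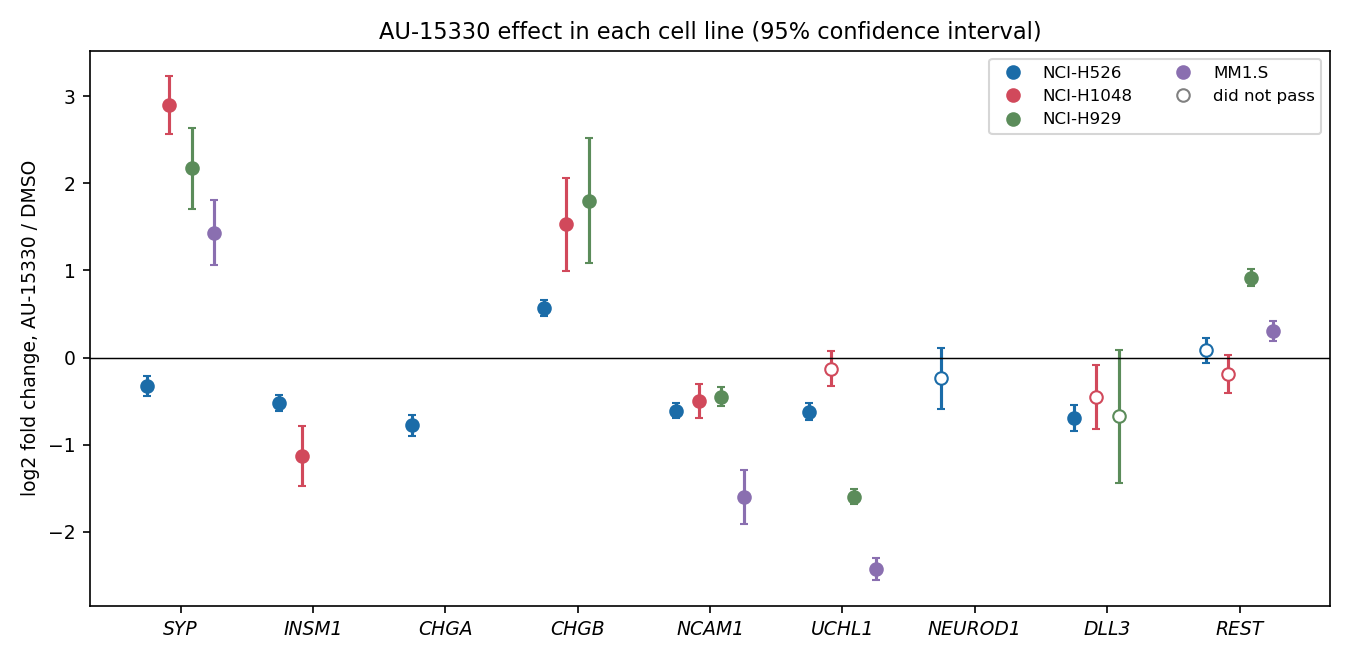
The vertical axis gives the log2 fold change of AU-15330 against DMSO in each line, with bars for the 95% confidence interval, filled points for genes past an adjusted p of 0.05 and open points for those that did not pass; lines in which a gene was below the filter are left out. SYP lies above 0 in 3 lines (1.43 to 2.90) and below 0 in NCI-H526 (-0.33).

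In NCI-H526, REST stood at 26.7 and 27.9 in the DMSO libraries and at 30.3 and 27.7 in the AU-15330 libraries. The arms overlapped, and the log2 fold change was 0.08 (95% confidence interval -0.06 to 0.23, adjusted p = 0.29). In NCI-H1048 it stood at 116 and 119 under DMSO and at 93.3 and 115 under AU-15330. The treated libraries were both lower but far apart, and the log2 fold change of -0.19 (-0.41 to 0.03) had an adjusted p of 0.18. Without treated replicate 2, which is the higher one, the value was -0.34 (adjusted p = 4.8e-04), a fit in which the single treated library is assumed to vary like the DMSO pair, so this value rests on 1 library. The treated pair of NCI-H1048 was the least alike of the 8 replicate pairs, with a chi-square of 21.0 per degree of freedom between its estimated reads, against 2.16 to 8.41 in the others.

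REST rose in both myeloma lines. In NCI-H929 it went from 139 and 145 to 260.5 and 277, a log2 fold change of 0.92 ± 0.05 (SE) with an adjusted p of 2.5e-10. In MM1.S it went from 124 and 126 to 156 and 153, a smaller change of 0.31 ± 0.05 (adjusted p = 3.6e-04). No treated value overlapped a DMSO value in either line. The effect in NCI-H929 exceeded that in MM1.S by 0.61 ± 0.07 (adjusted p = 2.8e-05). Under DMSO the order of REST from highest to lowest was NCI-H929, MM1.S, NCI-H1048 and NCI-H526, with no overlap between neighbors. The gene NOA1 lies on the opposite strand over 3459 bases of REST (chromosome 4, 56907876 to 56966808, plus strand, GENCODE 44). Whether the library kit kept strand is not stated in the sources used here, so that reads from this overlap could belong to either gene. SYP, UCHL1 and NCAM1 likewise have opposite-strand transcripts (SYP-AS1, UCHL1-DT and NCAM1-AS1), which have no row in the table.

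SYP (chromosome X, 49187815 to 49200218, minus strand) separated NCI-H526 from all other lines. In NCI-H526 it stood at 106 and 107 under DMSO and at 80.5 and 89.6 under AU-15330. Both treated libraries were below both controls, and SYP fell by 0.33 on the log2 scale (SE 0.05, adjusted p = 4.4e-04). This call was lost without the filter on low values (adjusted p = 0.13) and in a fit of all 16 libraries (0.083). In NCI-H1048, by contrast, SYP went from 1.70 and 1.47 to 16.5 and 13.7, a log2 fold change of 2.90 ± 0.16 or 7.46-fold (adjusted p = 4.5e-11). These values stood for about 68.0 and 49.5 reads before and 581 and 500.1 reads after treatment, so that the rise did not rest on single reads.

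SYP rose in the myeloma lines as well. In NCI-H929 it went from 1.50 and 1.79 to 10.1 and 8.28 (log2 fold change 2.17 ± 0.22, adjusted p = 4.9e-07). In MM1.S it went from 1.72 and 1.88 to 5.01 and 6.51 (1.43 ± 0.17, adjusted p = 1.7e-05). In each of these lines the treated libraries stayed well below the level of NCI-H526. Under DMSO the order was NCI-H526, MM1.S, NCI-H929 and NCI-H1048, with overlap between neighbors among the last 3 and none with NCI-H526. The difference between the 2 myeloma effects was 0.74 (95% confidence interval 0.15 to 1.33, adjusted p = 0.041), and it was 0.14 with an adjusted p of 0.69 under quantile normalization, so it is not relied on.

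CHGA (chromosome 14, 92923150 to 92935285, plus strand) was measurable in NCI-H526 alone. It stood at 75.9 and 81.3 under DMSO and at 43.8 and 47.5 under AU-15330. The arms did not overlap, and CHGA fell by 0.78 on the log2 scale (SE 0.06, adjusted p = 1.3e-06). In NCI-H1048 the 2 DMSO libraries held no more than 1 read in all, and the treated libraries held about 4.92 and 3.81 reads. NCI-H929 was at 0 in all 4 libraries, and MM1.S held fewer than 2 reads in every library, so that no change could be tested in these 3 lines.

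CHGB (chromosome 20, 5911510 to 5925353, plus strand) is the other granin and did not follow CHGA. In NCI-H526 it stood at 111 and 112 under DMSO and at 162 and 169.7 under AU-15330. It rose there by 0.57 ± 0.04 on the log2 scale (adjusted p = 1.4e-06), while CHGA fell in the same libraries. In NCI-H1048 it went from 0.351 and 0.358 to 1.76 and 2.19, a log2 fold change of 1.53 ± 0.25 (adjusted p = 1.1e-04). The DMSO values were about 14.1 and 12.1 reads. In NCI-H929 it went from 0.293 and 0.179 to 1.93 and 2.18 (1.80 ± 0.33, adjusted p = 2.1e-04), with 3 and 2 reads in the DMSO libraries and 27 and 29.0 in the treated ones. CHGB passed the filter in NCI-H1048 and NCI-H929 only through its treated libraries, and a gene that passes in this way had to differ. Its log2 fold change in NCI-H1048 ranged from 1.13 to 2.18 with the pseudocount, and in NCI-H929 the call was lost without the filter (adjusted p = 0.097). Its calls in these 2 lines are therefore given as values and not as support. In MM1.S, CHGB stood at 0.553 and 0.766 under DMSO and at 0.564 and 0.836 under AU-15330, arms that overlapped below the filter.

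Among the transcription factors, INSM1 (chromosome 20, 20368104 to 20370949, plus strand) was expressed in the SCLC-P lines only. In NCI-H526 it fell from 159 and 158 to 113 and 108, by 0.52 on the log2 scale (SE 0.04, adjusted p = 3.0e-06). In NCI-H1048 it fell from 6.40 and 6.25 to 2.67 and 2.58, by 1.13 (SE 0.16, adjusted p = 2.5e-05). Neither line had an overlap between the arms, and in both myeloma lines no library held more than 1 INSM1 read. NEUROD1 (chromosome 2, 181668295 to 181680827, minus strand) was low throughout. It stood in NCI-H526 at 2.11 and 2.01 under DMSO and at 1.58 and 1.78 under AU-15330, with a log2 fold change of -0.24 (-0.59 to 0.11, adjusted p = 0.22). The highest value in any library of the other 3 lines was 0.230. NEUROD1 lies within the span of CERKL on the same strand over 12371 bases, and how the authors' pseudoalignment divided reads between the 2 genes could not be seen from the values.

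NCAM1 (chromosome 11, 112961275 to 113278436, plus strand) fell in all 4 lines. It went from 252 and 259.8 to 169 and 166 in NCI-H526, a log2 fold change of -0.61 ± 0.04 (adjusted p = 6.2e-07). In NCI-H1048 it went from 291 and 280.3 to 198 and 205 (-0.50 ± 0.09, adjusted p = 3.3e-04). In NCI-H929 it went from 122 and 117 to 89.4 and 85.7 (-0.45 ± 0.05, adjusted p = 2.1e-06). This value was also the median of the neuroendocrine genes tested in NCI-H929. That median was -0.22 under quantile and -0.23 under total-count scaling. No arm overlapped its control in these 3 lines, and the change was below 1 log2 unit in each. In MM1.S, where the level was lowest, NCAM1 went from 9.31 and 9.22 to 2.47 and 2.98, the strongest of its changes (-1.60 ± 0.14, adjusted p = 1.5e-06). The effect in NCI-H929 differed from that in MM1.S by 1.15 ± 0.13 (adjusted p = 3.3e-05).

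UCHL1 (chromosome 4, 41256413 to 41268455, plus strand) was abundant in all 4 lines and fell in 3 of them. In MM1.S it went from 394 and 427 to 74.2 and 77.4, a log2 fold change of -2.43 ± 0.06 (adjusted p = 2.3e-10), and in NCI-H929 from 564 and 588 to 191 and 189 (-1.60 ± 0.04, adjusted p = 2.1e-13). The 2 myeloma effects differed by 0.83 ± 0.07 (adjusted p = 4.1e-06). In NCI-H526 it went from 477 and 478 to 301 and 319 (-0.62 ± 0.04, adjusted p = 1.1e-06). NCI-H1048 was the exception: UCHL1 stood at 683 and 702 under DMSO and at 668 and 599 under AU-15330, with a log2 fold change of -0.13 (-0.33 to 0.07, adjusted p = 0.31). Both treated libraries were below both controls there, but the difference did not pass the test.

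DLL3 (chromosome 19, 39498895 to 39508481, plus strand) was highest in NCI-H526, where it fell from 25.3 and 25.6 to 15.3 and 15.7 (-0.70 ± 0.07, adjusted p = 9.9e-06). In NCI-H1048 it stood at 3.80 and 4.10 under DMSO and at 2.75 and 2.74 under AU-15330. The arms did not overlap, but the log2 fold change of -0.46 (-0.82 to -0.09) had an adjusted p of 0.051. It passed under 4 of the alternatives, with adjusted p-values from 0.014 to 0.048. In NCI-H929 DLL3 was at 1.56 and 1.61 under DMSO and at 1.29 and 0.451 under AU-15330, which is 18 and 6 reads in the treated libraries (-0.68, -1.44 to 0.09, adjusted p = 0.097). No read was assigned to DLL3 in any MM1.S library.

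Counted by line, 7 of the 9 genes tested in NCI-H526 passed, 1 higher and 6 lower, where 58.8% of the 13685 genes tested passed, 29% higher and 29.8% lower. In NCI-H1048, 7 genes were tested and 4 passed, 2 higher and 2 lower, against 35.1% of all genes (16.9% higher, 18.2% lower). CHGB, which entered only through its treated libraries, is one of the 2 higher genes there and one of the 3 higher in NCI-H929. Without the filter none of these 4 calls held, with adjusted p-values of 0.055 for SYP, 0.068 for INSM1, 0.070 for NCAM1 and 0.12 for CHGB. In NCI-H929, 6 were tested and 5 passed, 3 higher and 2 lower, against 76% (38.4% higher, 37.6% lower). In MM1.S the 4 genes tested all passed, 2 higher and 2 lower, against 74.1% (33.9% higher, 40.2% lower). Since 58.8% or more of all genes passed in 3 of the 4 lines, a call for one of these genes says little by itself. The lower genes in NCI-H526 (6 of 9) stood above the share of all genes, and the median log2 fold change of the 8 neuroendocrine genes there was -0.57 beside 0.00 over all genes tested.

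The 2 SCLC-P lines differed in the level of these genes before treatment. All 9 passed in untreated NCI-H526 against untreated NCI-H1048, where 80.9% of 14832 genes passed (39.7% higher and 41.1% lower in NCI-H526). The 6 higher ones in NCI-H526 were CHGA, CHGB, SYP, INSM1, DLL3 and NEUROD1. Of these, CHGA and NEUROD1 were below the filter in NCI-H1048 and entered only through NCI-H526, where they are high, so that they had to differ. CHGB passed the filter in NCI-H1048 only through its treated libraries, and its DMSO mean there was 0.355. The differences in log2 level were 7.03 ± 0.10 for CHGB, 5.69 ± 0.10 for SYP, 4.54 ± 0.07 for INSM1, 2.54 ± 0.10 for DLL3 and 1.86 ± 0.15 for NEUROD1, with adjusted p-values from 1.8e-12 to 5.3e-07. For CHGA, which had no more than 1 read in the NCI-H1048 controls, the fitted 7.29 depends on the pseudocount (9.53 with 0.1, 6.30 with 1) and no fold is given. CHGB and NEUROD1 also lay below the pseudocount in NCI-H1048, and their differences were 7.94 and 2.83 with 0.1 and 6.37 and 1.34 with 1.

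REST went the other way, at 27.3 ± 0.86 (SD) in NCI-H526 and 118 ± 2.06 in NCI-H1048, a difference of -2.09 ± 0.09 or 4.25-fold (adjusted p = 4.4e-09). UCHL1 was also lower in NCI-H526, by 0.54 (SE 0.07, adjusted p = 2.7e-05). NCAM1 differed by -0.16 (-0.28 to -0.03, adjusted p = 0.024), a call that was lost when any of 3 of the 4 DMSO libraries was left out. UCHL1 and NCAM1, often used as neuroendocrine markers, were thus high in both lines, whereas the granins, SYP and INSM1 were high in NCI-H526.

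**Figure D3:**
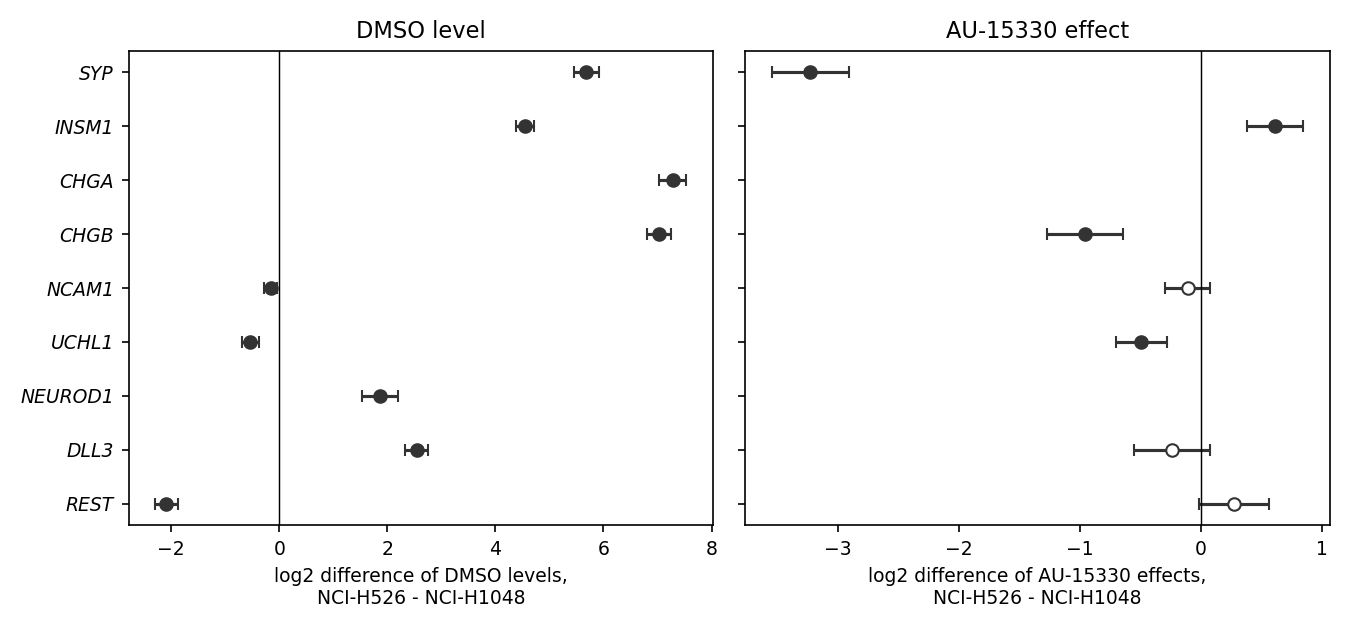
The left panel gives the log2 difference of DMSO levels between NCI-H526 and NCI-H1048 and the right panel the log2 difference of the AU-15330 effects in the same order, with bars for the 95% confidence interval and filled points for an adjusted p under 0.05; genes below the filter in a line have no point on the right. CHGB and CHGA lie above 7 and REST at -2.09 on the left, and SYP lies at -3.23 on the right.

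The effects of AU-15330 also differed between the 2 SCLC-P lines. Of 7 genes tested, 4 passed, 1 with a higher and 3 with a lower value in NCI-H526, where 28.9% of 12544 genes passed (13.4% higher, 15.5% lower). SYP differed most, by -3.23 ± 0.14 (adjusted p = 1.1e-07), with a fall in NCI-H526 and a rise in NCI-H1048. CHGB, which rose in both, rose by 0.96 less in NCI-H526 (a difference of -0.96 ± 0.14, adjusted p = 5.0e-04), although it entered the test in NCI-H1048 only through its treated libraries, and UCHL1 differed by -0.49 ± 0.10 (adjusted p = 0.0028). INSM1 fell in both and fell less in NCI-H526 (0.61 ± 0.11, adjusted p = 0.0013). The effects on NCAM1 (-0.11, -0.29 to 0.07), DLL3 (-0.24, -0.56 to 0.07) and REST (0.27, -0.02 to 0.56) did not pass the test, with adjusted p-values of 0.35, 0.24 and 0.15. For REST the difference was 0.42 with an adjusted p of 0.0045 without NCI-H1048 treated replicate 2, with the same assumption about the lone library. In the myeloma lines all 4 genes tested (SYP, NCAM1, UCHL1 and REST) had a higher value in NCI-H929 than in MM1.S, where 48.3% of 12138 genes passed (28.1% higher, 20.1% lower). The count was 3 when either NCI-H929 replicate 1 library, either MM1.S DMSO library or MM1.S treated replicate 1 was left out, since SYP did not pass then. The 2 lines also differed in RNA preparation, which cannot be told apart from the line.

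A list of 38 genes with known RE1 elements, which contains SYP and CHGB, was set beside REST. Under DMSO it was higher in NCI-H526, the line with less REST: 28 of 33 tested were higher and 2 lower than in NCI-H1048, with a median log2 difference of 3.06 beside -0.01 over all genes tested (26 higher and 2 lower of 31, median 2.63, without SYP and CHGB). Of all genes, 39.7% were higher and 41.1% lower. On this list 32 genes passed the filter in NCI-H526 and 21 in NCI-H1048. Those that passed in NCI-H526 alone were selected for a higher level there. The count and the median are therefore given as values and not as support. With AU-15330 the list was lower in NCI-H526, with 5 of 32 tested higher and 19 lower (median -0.20), where 29% of all genes were higher and 29.8% lower. A gene low under AU-15330 could pass the filter through its DMSO libraries, and such a gene had to fall. How many did so was not counted, so the fall of the list is not used as support. The falls in NCI-H526 included CPLX1, a regulator of vesicle fusion (log2 fold change -2.07), NEFH, a neurofilament (-1.04), and KCNH2, a potassium channel (-1.08). The glutamate receptor gene GRIA2 rose there from 19.2 and 17.1 to 75.7 and 71.8 (1.99, adjusted p = 6.5e-09).

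In NCI-H1048, 6 of 21 tested RE1 genes rose and 7 fell (median -0.29), where 16.9% of all genes rose and 18.2% fell. SYP had the smallest adjusted p among them, STMN3 (-0.80) and CDK5R1 (-0.86) fell, and MAPK8IP2 rose from 12.2 to 21.0 in the mean (0.76, adjusted p = 9.5e-05). In NCI-H929 the list mostly rose, with 17 of 22 tested higher and 4 lower (median 1.13 beside 0.04 over all genes, of which 38.4% rose and 37.6% fell), or 15 higher and 4 lower of 20 without SYP and CHGB (median 1.06). The filter took the mean over both arms, so a gene low under DMSO could enter through its treated libraries, as CHGB did. Such a gene had to rise. How many others of the list entered in this way was not counted, so the rise of the list is not used as support. The sodium channel subunit SCN3B went from 2.53 to 18.7 in the mean (2.72, adjusted p = 8.6e-08). In MM1.S, 6 of 15 rose and 3 fell (median 0.25; 33.9% and 40.2% of all genes), with CELSR3, an adhesion protein of neurons, at 1.70 (adjusted p = 8.4e-07). REST itself rose in the same 2 myeloma lines. For the difference of effects between the SCLC-P lines, 3 of 20 tested RE1 genes had a higher value in NCI-H526 and 9 a lower one. Of all genes, 13.4% were higher and 15.5% lower. Without SYP and CHGB, 3 of 18 were higher and 7 lower. The median was 0.00 with both genes and 0.05 without them, each with a sign that changed with the scaling.

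**Figure D4:**
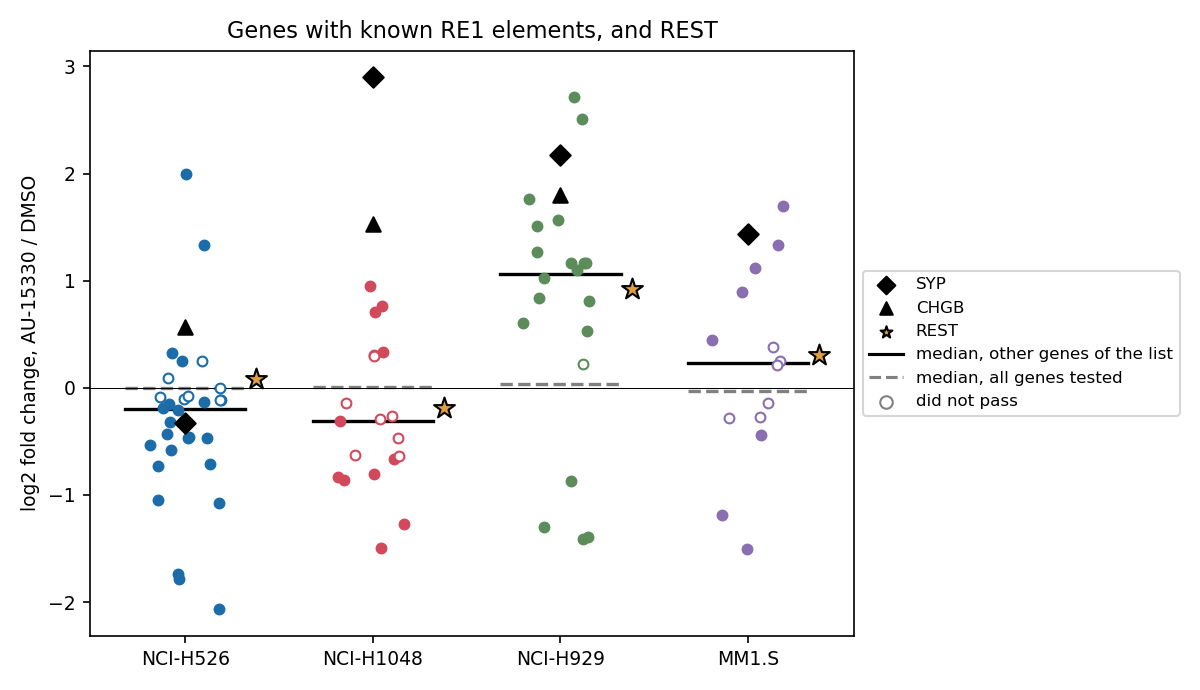
Points give, for the genes with known RE1 elements in each line, the log2 fold change with AU-15330 (filled: adjusted p under 0.05; open: did not pass), with a diamond for SYP, a triangle for CHGB and a star for REST. Solid lines are the medians of the list without SYP and CHGB (-0.20, -0.31, 1.06 and 0.23 from left to right), and dashed lines the medians of all genes tested.

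Of the 19 genes of the REST corepressor complex, 6 rose and 9 fell in NCI-H526 (median -0.13), and 2 rose and 1 fell in NCI-H1048 (median 0.05), beside 29% and 29.8% of all genes in the first line and 16.9% and 18.2% in the second. HMG20B, a subunit of the KDM1A complex, rose in both SCLC-P lines, from a mean of 29.6 to 47.1 in NCI-H526 (0.66, adjusted p = 3.7e-06) and from 144 to 245 in NCI-H1048 (0.76, adjusted p = 5.4e-06), as did PHF21A, another subunit (0.34 and 0.58). RCOR3 rose in NCI-H526 (0.43), and EHMT1, a histone methyltransferase, fell there (-0.38). RCOR2 fell in NCI-H1048 from 15.0 and 14.8 to 3.54 and 3.31 (-1.97 ± 0.14, adjusted p = 1.5e-09). CTDSP1 there had a log2 fold change of 0.26 with an adjusted p of 0.060.

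In NCI-H929, 12 of 19 rose and 5 fell (median 0.30), with CTDSP1 at 1.46 and RCOR3 at 1.14, and in MM1.S 7 of 18 tested rose and 4 fell (median 0.07), with PHF21A at 1.85 and CTDSP1 at 1.43. Of those calls, CDYL, HDAC2 and WIZ in NCI-H929 and RCOR1 and SIN3B in MM1.S, all lower, changed sign under another scaling. Of all genes, 38.4% rose and 37.6% fell in NCI-H929 and 33.9% and 40.2% in MM1.S, so that the share of corepressor genes that rose in MM1.S was near the background. Of the 7 regulators of REST splicing and stability, 4 of 6 tested rose in NCI-H526 (median 0.21), among them CSNK1A1, USP15 and SRRM3, each by 0.20 to 0.25. In NCI-H1048, 1 of 6 tested rose and 1 fell. Of all genes, 29% rose in NCI-H526, and 16.9% rose and 18.2% fell in NCI-H1048. SRRM3, a neuronal splicing factor, fell there from 13.1 and 13.3 to 8.17 and 5.86 (-0.88 ± 0.15, adjusted p = 1.2e-04). CSNK1A1 (0.16, adjusted p = 0.18) and USP15 (0.13, adjusted p = 0.33) did not pass there. In the myeloma lines USP7, a deubiquitinase, fell (-0.76 in NCI-H929, -0.93 in MM1.S) and BTRC, part of a ubiquitin ligase, rose (1.14 and 0.78), and the list had 2 of 5 tested higher and 3 lower in NCI-H929 and 1 of 6 higher and 3 lower in MM1.S.

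The 37 other neuroendocrine genes mostly fell in NCI-H526, where 18 of 24 tested fell and 5 rose (median -0.53 beside 0.00 over all genes, of which 29.8% fell and 29% rose). The filter took the mean over both arms. Of this list, 24 genes reached it in the DMSO mean of NCI-H526 and 22 in the AU-15330 mean. A gene that entered only through its DMSO libraries had to fall, so this count is not used as support. HES6, a helix-loop-helix factor, went from 181 and 178 to 53.3 and 55.1 (-1.72 ± 0.04, adjusted p = 1.3e-09). SEZ6 (-1.05) and PROX1 (-0.57) fell as well, and the POU factor POU3F2 rose from 28.8 and 31.3 to 62.5 and 64.3 (1.07). In NCI-H1048, 4 of 16 tested fell and none rose (18.2% and 16.9% of all genes): PROX1 (-2.42), HES6 (-0.97), POU3F2 (-0.82) and FOXA2 (-1.03). Under DMSO, 19 of 28 tested were higher and 6 lower in NCI-H526 than in NCI-H1048 (median 1.73 beside -0.01 over all genes, of which 39.7% were higher and 41.1% lower). On this list 24 genes passed the filter in NCI-H526 and 16 in NCI-H1048. Those that passed in NCI-H526 alone were selected for a higher level there, so the count is not used as support. In NCI-H929, 6 of 11 rose and 1, NEUROD2 (-2.01), fell, with CPE, the carboxypeptidase of peptide hormone processing, up from a mean of 3.08 to 19.6 (2.49, adjusted p = 4.0e-09). In MM1.S, 3 of 9 rose and 2 fell, HES6 (-3.53) and ENO2 (-1.30). The share that rose was near that of all genes in MM1.S (33.9%). In NCI-H929, 38.4% of all genes rose. The count there is not read against this share, since few genes were tested and the filter took the mean over both arms.

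Under DMSO, NCI-H526 against NCI-H1048 gave 7 higher and 7 lower of the 19 corepressor genes, 3 and 3 of 6 regulators, 7 and 7 of 15 Notch genes, 0 and 6 of 6 non-neuroendocrine markers, 1 and 4 of 5 plasma cell markers, and 9 and 2 of 11 tuft cell markers. Of all genes tested, 39.7% were higher and 41.1% lower, and the corepressor and Notch counts were near these shares. The median log2 difference of the tuft cell markers was 3.01, close to the 3.06 of the RE1 list, so that nothing particular to that list is read from its shift. The 6 non-neuroendocrine markers tested were all lower in NCI-H526, but only 2 passed the filter there, against 6 in NCI-H1048. Markers that passed in 1 line alone were selected for a higher level in that line. The same holds for plasma cell markers (3 passed in NCI-H526, 5 in NCI-H1048) and tuft cell markers (11 and 8). The counts of these 3 lists are therefore given as values and not as support.

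Notch genes were described beside DLL3. In NCI-H526, 4 of 15 tested rose and 8 fell, and in NCI-H1048 3 of 13 rose and 6 fell (medians -0.12 and -0.10), beside 29% higher and 29.8% lower of all genes in the first line and 16.9% and 18.2% in the second. The receptor NOTCH1 fell in NCI-H526 from 54.9 in both libraries to 22.5 and 21.8 (-1.29) and in NCI-H1048 from a mean of 132 to 47.3 (-1.47). DLL1, a ligand, fell in NCI-H526 (-1.50), as did the glycosyltransferases MFNG (-0.86) and LFNG (-1.12). In NCI-H1048 the ligand JAG1 fell (-0.72) while the Notch target genes HEY1 (1.16) and HES1 (0.93) rose. In NCI-H929, 3 of 11 rose and 6 fell, with NOTCH2 at -0.91 and MFNG at -0.62. In MM1.S, 4 of 9 rose and 5 fell, with NOTCH1 at -2.36 and MFNG at -1.67. Of all genes, 38.4% rose and 37.6% fell in NCI-H929, and 33.9% rose and 40.2% fell in MM1.S. With so few Notch genes tested, the myeloma counts are not read as different from these shares.

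Markers of other cell identities moved with treatment. The summed level of the 11 tuft cell markers, of which 11 in NCI-H526 and 8 in NCI-H1048 were above the filter, fell from between 3388 and 3421 to between 1319.7 and 1360 in NCI-H526 and from between 1428 and 1519.8 to between 213 and 222 in NCI-H1048. POU2F3 itself fell in both (-2.39 and -4.02). Of the tuft cell markers tested, 10 fell and 1 rose in NCI-H526 and all 8 fell in NCI-H1048, where 29.8% and 18.2% of all genes fell. Plasma cell markers fell in 8 of 9 cases and rose in 1 in each myeloma line, of which the falls of PRDM1 in both lines and TNFRSF17 in MM1.S changed sign under another scaling. Of all genes, 37.6% fell in NCI-H929 and 40.2% in MM1.S. The 9 plasma cell markers, all above the filter, fell in sum from between 23090.2 and 23538 to between 12284 and 12954 in NCI-H929 and from between 9043 and 9513 to between 6175 and 6209 in MM1.S, with IRF4 at -2.73 in NCI-H929 and MZB1 at -3.03 in MM1.S. The sum of the 7 non-neuroendocrine markers fell in NCI-H1048 from between 945 and 967 to between 507 and 519. In NCI-H526 the sum was low, between 5.29 and 5.35 under DMSO and between 6.87 and 7.21 under AU-15330. CD44 fell in NCI-H1048, NCI-H929 and MM1.S (-1.76, -1.56 and -1.31), and YAP1 rose in NCI-H526 (0.62). In MM1.S, CAV1 (-1.44) and TGFBR2 (-0.29) fell with CD44, while LGALS1 (1.65), YAP1 (1.50) and VIM (1.11) rose. Of the tested non-neuroendocrine markers, 1 of 2 rose and 0 fell in NCI-H526, and 2 of 6 fell in NCI-H1048. In NCI-H929, 3 of 6 fell and 2 rose, and in MM1.S 3 fell and 3 rose. Beside them, 29% of all genes rose in NCI-H526 and 18.2% fell in NCI-H1048. In NCI-H929, 37.6% of all genes fell and 38.4% rose, and in MM1.S 40.2% fell and 33.9% rose. With so few markers, the NCI-H526 and myeloma counts are not read as different from these shares. The part of these shifts in the results above was not tested.

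Over the 8 SCLC-P libraries, the genes whose pattern was most like that of each gene were found among 10548 genes with a mean of at least 10. For REST they were SMIM14 and LPGAT1 (Pearson r 0.999 and 0.998), for SYP CDCA8 and RNF26 (0.998 each), for INSM1 AP3B2 and MTSS1 (1.00 each) and for CHGA PEX5L and PAX5 (1.00 each). The 8 libraries come from 2 lines with 4 libraries each and their levels lie mostly in 2 groups by line, so that these values describe the line difference first.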

How the data were processed

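RNA-seq of 16 libraries (4 lines, 2 arms, 2 libraries each) was used. Per the labels, libraries followed the TruSeq RNA protocol, and per the submitters' processing notes and the study's methods, reads were pseudoaligned with kallisto (genome build hg38) and processed with edgeR and limma. The authors deposited values named CPM, but the totals were 0.829 to 1.19 M (units of 1e6) per library, so they were treated as a scaled signal per gene (counts divided by an effective library size), and the deposited signal was analyzed with no count model. The test planned for CPM values, limma-trend, was kept. Whole reads were not recovered: 74.8 to 80.1% of low values lay within 0.1 of a multiple of 1 read. Reads were therefore estimated only roughly.

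Values were analyzed as log2(value + 0.5) with limma 3.58.1 (R 4.3.3; lmFit, then eBayes with trend, two-sided), per line or over the 8 libraries of a pair of lines. Genes with a mean of at least 1 over a line's 4 libraries were tested (in either line for the DMSO comparison, in each line for the differences of effects), with Benjamini-Hochberg adjustment over all of them and a threshold of 0.05. Folds are on this scale and understate low genes. Intervals are 95% confidence intervals. The method was tested on simulated data. Coordinates are GRCh38 from GENCODE 44. Of 35606 identifiers, 35444 matched.

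The genes and lists were chosen with earlier results of these data known. Named further genes were, per list, the 4 with the smallest adjusted p in each SCLC-P line and 2 in each myeloma line. POU2F3, SDC1 and YAP1 were also named, and for REST, SYP, INSM1 and CHGA the 2 most correlated genes. Some genes that this rule names are not reported here. Alternatives were the pseudocount (0.1, 1), filter (none, 5), scaling (median-ratio, quantile, total count), no variance trend, a fit of all 16 libraries, a replicate block and leaving out each library. Replicates differed beyond counting noise.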

Additional observations from a re-analysis of the deposited data

Results flagged for a closer look

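The AU-15330 effect differed between lines, by the contrast of the effects in limma, for 8 gene and line-pair combinations, and each value is given on the log2 scale. Between NCI-H526 and NCI-H1048, the effect on SYP differed by -3.23, with a fall in the first and a rise in the second. The effect on INSM1 differed by 0.61, with the smaller fall in NCI-H526. The effect on CHGB differed by -0.96, with the smaller rise in NCI-H526, and CHGB entered the test in NCI-H1048 only through its treated libraries. The effect on UCHL1 differed by -0.49, with a fall that passed in NCI-H526 and not in NCI-H1048.

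Between NCI-H929 and MM1.S, the effect on NCAM1 differed by 1.15 and that on UCHL1 by 0.83, with the larger fall in MM1.S for each. The effect on REST differed by 0.61 and that on SYP by 0.74, with the larger rise in NCI-H929 for each. The SYP difference did not pass under 11 alternatives and was 0.14 (adjusted p = 0.69) under quantile normalization, so it is not relied on.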

How the results depend on the processing

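Of 674 alternative values for 46 results on the 9 genes, 640 kept their direction and side of the threshold, 12 newly passed, 22 no longer passed and none reversed. In NCI-H1048 the genes called higher numbered 1 with a filter at a mean of 5 and 0 with no filter, and those called lower 1 and 0. With a filter at 5, 1 was higher in MM1.S and 0 had a higher effect in NCI-H526 than in NCI-H1048, since fewer genes were tested. Without 1 library, the genes higher in NCI-H526 numbered 1 to 2 (REST passed at 0.15, adjusted p = 0.048, without treated replicate 2), those higher in NCI-H1048 1 to 2 (1 without either treated library) and those with a higher effect in NCI-H526 than in NCI-H1048 1 to 2 (2 without NCI-H1048 treated replicate 2).

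SYP in NCI-H526 did not pass with no filter (adjusted p = 0.13) or in 1 fit of all libraries (0.083). DLL3 passed as lower in NCI-H1048 under 4 alternatives and in NCI-H929 under 3, one of them without treated replicate 1 (-1.13, adjusted p = 0.027). NEUROD1 passed in NCI-H526 with no variance trend (adjusted p = 0.042). The SYP difference between the myeloma lines failed under 11 alternatives. With total-count scaling the median of all genes moved from 0.04 to 0.25 in NCI-H929 and from -0.03 to 0.20 in MM1.S, and the share of calls that were lower from 49.5% to 37.3% and from 54.3% to 39.7%. That share went from 53.6% to 43.4% for the SCLC-P difference of effects, and for the myeloma difference from 41.7% to 51.9% with median-ratio and 52.2% with quantile scaling.

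Replicate numbers were shared only as numbers: deviations of same-numbered libraries correlated at 0.04, 0.31, 0.00 and -0.33 in NCI-H526, NCI-H1048, NCI-H929 and MM1.S. With the replicate block, DLL3 passed in NCI-H1048 (adjusted p = 0.020), the SYP difference between the myeloma lines did not (0.059), and all-gene calls went from 2320 higher and 2488 lower to 2931 and 2999 in NCI-H1048. With crossed numbers, chosen after seeing the data, MM1.S had 4814 higher and 5721 lower calls, against 4685 and 5568 without a block. Depth limits the low values: 3 and 2 reads for CHGB in the NCI-H929 controls, and fewer than 5 for CHGA in every library outside NCI-H526.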
